A study of Mus musculus with 12 samples.

Results

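Ddah1, Ddah2, Agxt2 and Prmt1 are genes whose enzymes make or clear asymmetric dimethylarginine (ADMA), and their RNA was measured here in mouse liver. They are 4 of the 52636 gene identifiers counted in every library, and all 4 passed the filter on low counts. The set was chosen by a measured value: Ddah1 was picked because it was higher in ko than in wt livers on HFD, and the other 3 were added for their place in the same pathway. The values of Ddah1 in that comparison, and in any comparison that shares libraries with it, are therefore given as a description with no test.

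The livers came from C57BL/6 mice aged 12 weeks. There were 4 groups of 3 libraries: p53 wt on the normal diet (wt_normal), p53 ko on the normal diet (ko_normal), p53 wt on HFD, a high-fat diet (wt_HFD), and p53 ko on HFD (ko_HFD). Trp53, which encodes p53, is the gene missing in ko, and the labels name no allele, promoter or Cre line for it, no sex and no length of feeding. Whether the replicates are separate animals is not labelled. The p-values set a difference between groups only against the spread of libraries within groups, and that spread may be technical.

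ADMA arises when protein arginine methyltransferases, of which Prmt1 encodes the main one, place methyl groups on arginines of proteins, and those proteins are later broken down. Free ADMA competes with arginine at the nitric oxide synthases and inhibits them. Most of it is cleared by dimethylarginine dimethylaminohydrolase, which splits it into citrulline and dimethylamine. Ddah1 encodes the form of this enzyme found in liver and kidney, and Ddah2 encodes a related protein found mostly in vascular and immune cells. Agxt2 encodes a mitochondrial aminotransferase of liver and kidney that clears ADMA by another route and also uses beta-aminoisobutyrate.

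The sequences before the start sites of Ddah1 and Ddah2 are shown because the groups differ in p53, a transcription factor, and the 2 genes encode related proteins. They are the 250 bases upstream of each RefSeq gene start (GRCm38.p6, both on the + strand), chr3:145758442-145758691 for Ddah1 and chr17:35058785-35059034 for Ddah2, and capitals mark a match to the p53 consensus decamer.
Ddah1: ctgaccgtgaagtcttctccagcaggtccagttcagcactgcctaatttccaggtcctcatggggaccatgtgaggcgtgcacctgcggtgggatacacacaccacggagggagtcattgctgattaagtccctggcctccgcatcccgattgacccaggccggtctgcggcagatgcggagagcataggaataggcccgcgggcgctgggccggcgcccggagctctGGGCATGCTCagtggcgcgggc
Ddah2: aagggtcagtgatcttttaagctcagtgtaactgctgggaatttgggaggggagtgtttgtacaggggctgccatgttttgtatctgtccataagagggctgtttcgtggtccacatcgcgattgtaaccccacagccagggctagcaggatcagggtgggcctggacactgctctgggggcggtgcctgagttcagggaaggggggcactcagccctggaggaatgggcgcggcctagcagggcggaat
The Ddah1 window is 64% G and C and the Ddah2 window 58%. The p53 consensus decamer reads the same on both strands, and p53 is known to bind a pair of such decamers. A single match lay 22 to 13 bases before the RefSeq start of Ddah1. The GENCODE start used for the gene's position below is 17 bases upstream of the RefSeq start, so it falls inside the match. Of 5 windows of this length for the 4 genes, 1 held a match, and so did 7.13% of the 32851 RefSeq windows of the same length. These letters are a description of the window and do not show that p53 binds there.

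Library totals ran from 15465187 to 20492567 counts. Trp53 had 5 to 28 counts in the ko libraries and 142 to 432 in the wt libraries, with no overlap between them. Facts about 3 libraries touch the values below. In wt_normal replicate 2 the skeletal muscle markers summed to 7638 CPM (normalised read counts scaled to a common library size), against at most 10.9 CPM in any other library, and its T, NK and B cell markers summed to 141 CPM, against at most 15.9. Mitochondrial genes took 14.6% of the counts of ko_normal replicate 1, 10.3% of those of ko_HFD replicate 2, and 4.18% to 7.22% of those of the remaining 10 libraries. The hepatocyte markers were present in all libraries, and the kidney markers summed to at most 0.84 CPM, with 4 of 6 at 0 everywhere.

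Levels are CPM after TMM normalisation, a scaling that corrects for differences in library composition. Differences are log2 changes from edgeR's quasi-likelihood fit over 14433 genes, with their SE and Benjamini-Hochberg adjusted p, and a gene was called when that p was under 0.05. The plot of levels by library shows the 4 genes side by side.

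**Figure D1:**
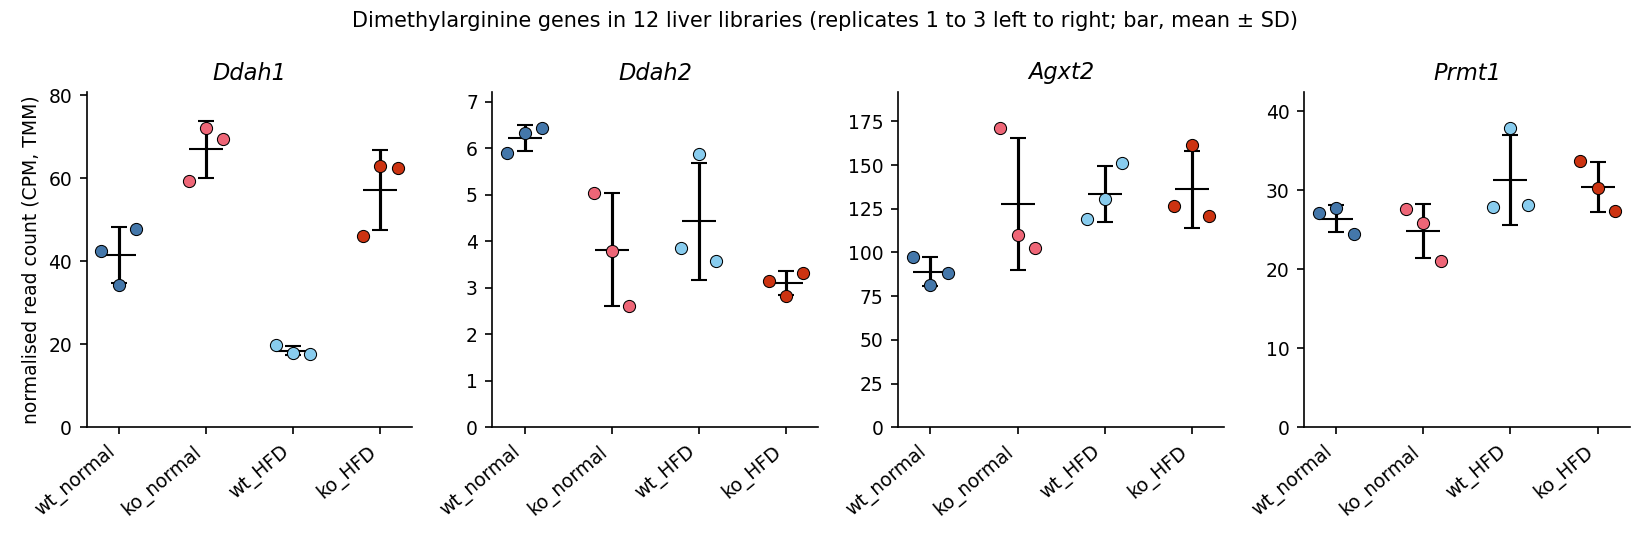
Normalised read counts (CPM, linear axes starting at 0) of the 4 genes in each of the 12 libraries, with the 3 replicates of a group from left to right and black bars for the mean ± SD. The 3 wt_HFD libraries are the lowest for Ddah1 (17.7 to 19.8 CPM), and all 3 wt_normal libraries are the highest for Ddah2 (5.91 to 6.44 CPM).

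Per kilobase of exon, which allows levels of different genes to be set side by side, Agxt2 was the highest of the 4 in every group, with means of 28.1 CPM per kb in wt_normal, 40.4 in ko_normal, 42.2 in wt_HFD and 43.0 in ko_HFD. Ddah1 was at 10.4, 16.8, 4.64 and 14.4 CPM per kb in the same order of groups. Prmt1 was at 7.71, 7.25, 9.13 and 8.89 CPM per kb. Ddah2 was the lowest, at 3.91, 2.40, 2.78 and 1.95 CPM per kb. Only Ddah1 and Prmt1 changed places between groups, with Prmt1 above Ddah1 in wt_HFD alone.

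Ddah1, the liver ADMA hydrolase (ENSMUSG00000028194, chr3:145758675-145894277, + strand, GRCm38), was measured at 42.6, 34.2 and 47.7 CPM in wt livers on the normal diet and at 59.3, 72.1 and 69.6 CPM in ko livers. The lowest ko library was above the highest wt library. The means were 41.5 ± 6.83 and 67.0 ± 6.80 CPM (SD, n = 3), which the fit put at 0.69 on the log2 scale (SE 0.17, 95% interval 0.32 to 1.06, 1.61-fold). This comparison asks what the loss of p53 changes on the normal diet, shares no library with the one that picked Ddah1, and is the one in which Ddah1 was tested. It did not pass in edgeR (adjusted p = 0.0998), with 218 of 14433 genes at a smaller p. The spread in that fit came from all 12 libraries, including those on HFD that picked Ddah1. Fitted by edgeR with the compared groups only, the log2 change was 0.70 (adjusted p = 0.1135). DESeq2, also fitted on all 12 libraries, called Ddah1 here (log2 change 0.70, adjusted p = 0.0130). An exact permutation test on the 3 against 3 libraries gave p = 0.1, two-sided, the smallest that this design allows. Without wt_normal replicate 2, the library with muscle markers and the lowest Ddah1 of its group, the log2 change was 0.59 (adjusted p = 0.358).

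On HFD, where Ddah1 was picked, the wt livers had 19.8, 18.0 and 17.7 CPM and the ko livers 46.1, 62.9 and 62.5 CPM. The 3 wt_HFD libraries lay close together and under every other library of the study, and the ko_HFD libraries spread more widely. The means were 18.5 ± 1.13 and 57.2 ± 9.60 CPM (SD, n = 3), 3.09-fold apart, and the log2 change was 1.63 (SE 0.18, interval 1.25 to 2.01). It ran from 1.55 to 1.76 over 19 other settings. Between the diets, the wt level was lower on HFD by a log2 change of -1.17 (SE 0.17, interval -1.54 to -0.79), with no overlap of libraries. In ko livers the log2 change with HFD was -0.23 (SE 0.17, interval -0.60 to 0.14), and the libraries overlapped. The ko effect on HFD minus that on the normal diet was 0.94 on the log2 scale (SE 0.24, interval 0.41 to 1.46), which contains the value the gene was chosen on. These 4 comparisons share libraries with each other and with the choice of Ddah1. Because Ddah1 was chosen on the HFD difference, that estimate may be too large, and these intervals and ranges are not tests.

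The summed level of the 8 hepatocyte markers was higher in ko livers, as Ddah1 was. Their summed level was 47680 to 64810 CPM in wt_normal, 79540 to 85680 CPM in ko_normal, 59230 to 62750 CPM in wt_HFD and 80240 to 89600 CPM in ko_HFD, so that every ko library was above every wt library on both diets. Alb and Apoa1 had the highest mean levels of the 8 in every group, and the difference in the sums lay mostly in these genes. Apoa1 had 10610 CPM in wt_normal, 17140 in ko_normal, 12810 in wt_HFD and 18110 in ko_HFD. Of the 8 markers 6 had positive log2 changes for ko against wt on each diet, with medians of 0.18 and 0.14, and none was called. Without wt_normal replicate 2 the median on the normal diet was 0.06, with 3 of 8 negative. Mean levels went the other way for Tat (1670 CPM in wt_normal, 901 in ko_normal) and Cyp2e1 (7238 and 6503). On HFD they did so for Tat (842 CPM in wt_HFD, 610 in ko_HFD) and Fgb (6423 and 3804). Alb, the albumin gene, had 23210 ± 4267 CPM in wt_normal and 42740 ± 1861 CPM in ko_normal (SD, n = 3), a log2 change of 0.88 (SE 0.25, adjusted p = 0.130), and 0.85 on HFD (adjusted p = 0.401). Between the diets in wt livers the sums overlapped, and the Alb log2 change was 0.01 (adjusted p = 0.994). The part of these markers in the Ddah1 values was not tested.

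In order of mean level Ddah1 was highest in ko_normal, followed by ko_HFD, wt_normal and wt_HFD. The ko_HFD libraries overlapped those of ko_normal, and their lowest (46.1 CPM) was under the highest of wt_normal (47.7 CPM). Each library held 279 to 1445 Ddah1 counts, for which counting error alone is 2.63% to 5.99% of the value. Rpl36a-ps2, a processed pseudogene, lies within an intron of Ddah1 on the same strand and shares 0 exon bases with it.

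**Figure D2:**
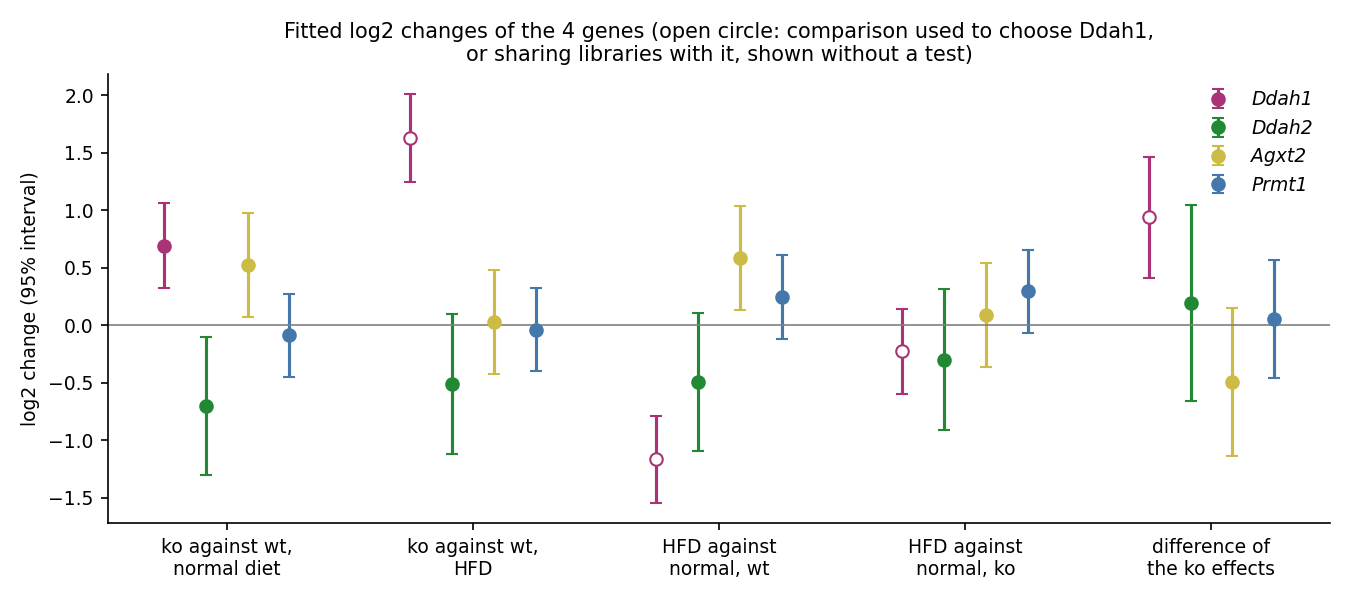
Fitted log2 changes of the 4 genes in 5 comparisons, with 95% intervals as bars. Filled circles were tested and none was called. Open circles, all of Ddah1, are values that chose the gene or share libraries with them, shown without a test. The intervals of Prmt1 include 0 throughout.

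Ddah2, whose protein is related to the hydrolase (ENSMUSG00000007039, chr17:35059035-35062095, + strand), had 5.91, 6.33 and 6.44 CPM in wt_normal and 5.04, 3.79 and 2.62 CPM in ko_normal. Every ko library was under every wt library, with a wider spread among the ko livers. The log2 change was -0.71 (SE 0.28, interval -1.31 to -0.11) and was not called (adjusted p = 0.248). On HFD the wt livers had 3.85, 5.87 and 3.57 CPM and the ko livers 3.15, 2.82 and 3.32 CPM. These libraries also did not overlap, although the gap between the lowest wt and the highest ko library was small, and the log2 change was -0.51 (SE 0.28, adjusted p = 0.628). Without wt_HFD replicate 2, the highest of its group, it was -0.26 (adjusted p = 0.884). With HFD the log2 change was -0.49 in wt livers (SE 0.28, adjusted p = 0.388) and -0.30 in ko livers (adjusted p = 0.932). The difference between the ko effects on the 2 diets was 0.19 (SE 0.39, adjusted p = 0.999). Without ko_normal replicate 1 the change with HFD in ko livers was -0.05 and that difference was 0.44 (adjusted p = 0.995 and 0.908). Ddah2 had only 48 to 133 counts a library, a counting error of 8.67% to 14.4% of the value.

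Markers of other liver cells were measured beside Ddah2, and none of those given here was called. All 10 endothelial markers had negative log2 changes for ko against wt on both diets and for HFD against normal diet in wt livers, with medians of -0.94, -0.37 and -0.67. For HFD in ko livers 6 of 10 were negative, with a median of -0.11. Their summed level was 406 to 467 CPM for wt and 207 to 306 CPM for ko livers on the normal diet, and 277 to 384 CPM and 202 to 326 CPM on HFD. Of 8 stellate cell and fibroblast markers, 8 were negative for ko against wt on the normal diet (median -1.06), 5 on HFD (-0.25), 8 for HFD in wt livers (-0.79) and 3 for HFD in ko livers (0.11). Of 8 T, NK and B cell markers, 6 were negative for ko against wt on the normal diet (median -1.15), 0 on HFD (1.07), 6 for HFD in wt livers (-2.85) and 3 in ko livers (0.24). Without wt_normal replicate 2, the medians for ko against wt on the normal diet were -0.74, -0.78 and 0.41 for the 3 lists in this order, and for HFD in wt livers -0.59, -0.32 and -1.10, and in the second comparison 7 of 10 endothelial markers were negative. Ddah2 without that library had log2 changes of -0.67 and -0.46. In bulk liver, fewer cells of a type and less RNA per cell cannot be told apart, and the part of these cell types in the Ddah2 values was not tested. The plot of Ddah2 against the markers gives both by library.

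**Figure D3:**
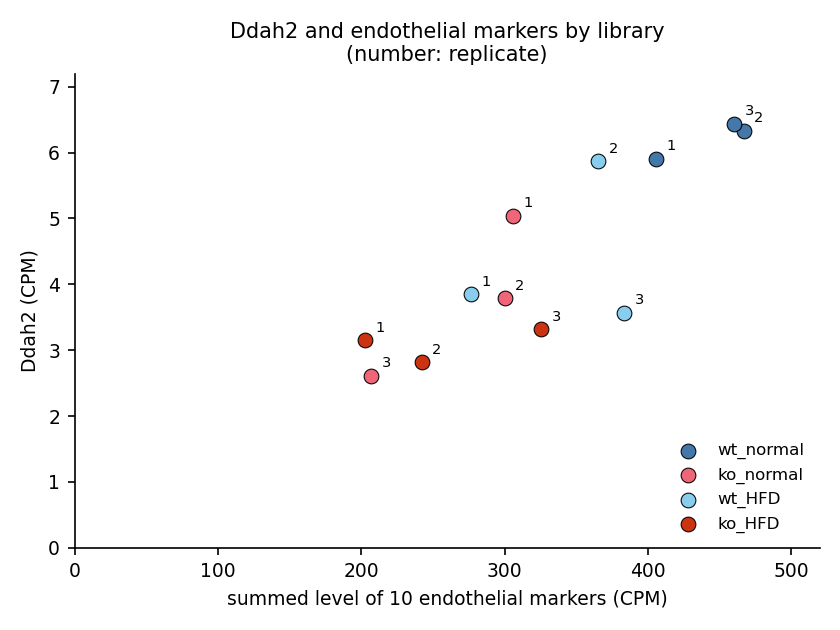
Ddah2 (CPM, vertical) against the summed level of 10 endothelial markers (CPM, horizontal) in the 12 libraries, coloured by group and numbered by replicate, both axes starting at 0. The 3 wt_normal libraries are highest on both axes (at least 406 CPM of markers and 5.91 CPM of Ddah2), and wt_HFD replicate 3 combines 384 CPM of markers with 3.57 CPM of Ddah2.

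The ratio of Ddah1 to Ddah2 per kilobase of exon puts the hydrolase and its relative on 1 scale within a library. It was 2.88, 2.16 and 2.97 in wt_normal and 2.06, 1.23 and 1.98 in wt_HFD. In ko_normal it was 4.70, 7.60 and 10.6, and in ko_HFD 5.84, 8.92 and 7.52. The ratio was thus higher in all 6 ko libraries than in any of the 6 wt libraries, which in part repeats the value Ddah1 was chosen on.

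Agxt2, the aminotransferase of the other clearing route (ENSMUSG00000089678, chr15:10358532-10410153, + strand), had 97.6, 81.2 and 88.4 CPM in wt_normal and 171, 110 and 102.5 CPM in ko_normal. The ko libraries were all above the wt libraries, with replicate 1, which also had the highest mitochondrial share, far above the other two. The log2 change was 0.52 (SE 0.21, interval 0.07 to 0.97, adjusted p = 0.263), and 0.26 (adjusted p = 0.617) without ko_normal replicate 1. On HFD, the wt livers had 119, 131 and 151 CPM and the ko livers 126, 161 and 121 CPM. Those groups overlapped almost fully, with a log2 change of 0.03 (SE 0.21, interval -0.43 to 0.48, adjusted p = 0.983). With HFD the log2 change was 0.59 in wt livers (SE 0.21, adjusted p = 0.190), with no overlap of libraries, and 0.09 in ko livers (adjusted p = 0.977). The difference between the ko effects was -0.49 (SE 0.30, adjusted p = 0.988), and -0.23 (adjusted p = 0.927) without ko_normal replicate 1. The mean levels were lowest in wt_normal (89.1 ± 8.24 CPM), and the libraries of the other 3 groups overlapped each other. Each library held 1586 to 2954 counts. The gene model Gm21973 shares 155 exon bases with Agxt2 and had 0 counts.

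Prmt1, the methyltransferase on the making side (ENSMUSG00000109324, chr7:44975989-44986568, - strand), had 27.1, 27.7 and 24.4 CPM in wt_normal and 27.6, 25.9 and 21.0 CPM in ko_normal. The groups overlapped, and the log2 change was -0.09 (SE 0.17, interval -0.45 to 0.27, adjusted p = 0.844). On HFD the wt livers had 27.8, 37.9 and 28.1 CPM and the ko livers 33.7, 30.3 and 27.4 CPM. Replicate 2 of wt_HFD stood above the others, the groups overlapped, and the log2 change was -0.04 (interval -0.40 to 0.32, adjusted p = 0.964). That library also had the highest summed cholangiocyte markers of all 12 (93.0 CPM). The next highest sum (67.3 CPM) was in ko_normal replicate 3, which had the lowest Prmt1 of all 12 (21.0 CPM). The part of these markers was not tested. With HFD the log2 change was 0.24 in wt livers (adjusted p = 0.484) and 0.29 in ko livers (adjusted p = 0.876), and without wt_HFD replicate 2 the first was 0.12. Under scaling by library totals it was 0.05. No difference in Prmt1 by genotype or diet passed the test, and the intervals given above hold genotype effects from -0.45 to 0.32 on the log2 scale.

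Read over the 4 genes, none of the values that were tested was called by edgeR. Among all genes 30 were called for ko against wt on the normal diet (0.208% of those tested), 10 on HFD (0.0693%) and 100 for HFD against normal diet in wt livers (0.693%). For HFD against normal diet in ko livers edgeR called 0 genes (0%), with 812 at an unadjusted p under 0.05 and 37 called by DESeq2. For the difference of the ko effects it called 0 genes (0%), with 725 at an unadjusted p under 0.05 and 19 called by DESeq2. The libraries did not overlap for 3 of the 4 genes between ko_normal and wt_normal, where 22.8% of all genes did not overlap, and for 2 of 4 between ko_HFD and wt_HFD, against 13.6%. They did not overlap for 4 of 4 genes between the diets in wt livers, against 21.9%, and for 0 of 4 in ko livers, against 11.4%. In wt livers the gap was narrow for Ddah2 (5.87 CPM in wt_HFD replicate 2, 5.91 in wt_normal replicate 1). It was also narrow for Prmt1 (27.7 CPM in wt_normal replicate 2, 27.8 in wt_HFD replicate 1). Both gaps lay within the counting error, which was at least 8.67% of the value for Ddah2 and 4.13% for Prmt1. The HFD counts for ko against wt, and those between the diets, include Ddah1 and are a description.

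Around these genes, 60 genes in 6 lists cover other methyltransferases, nitric oxide synthesis and signalling, arginine and citrulline metabolism, cationic amino acid transport, the beta-aminoisobutyrate pathway with relatives of Agxt2, and nuclear receptors with SREBP factors. Of these, 53 passed the filter. Of the 53, edgeR called 2 higher and 0 lower for ko against wt on the normal diet, 0 on HFD, 0 higher and 4 lower for HFD against normal diet in wt livers, and 0 in the other comparisons. The shares called over all genes tested were 0.208%, 0.0693% and 0.693% in the first 3, and 0% in the others. The median log2 change of the 53 was -0.12, 0.16 and -0.10 in the first 3 of these comparisons, against -0.02, -0.01 and -0.03 over all genes tested.

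**Figure D4:**
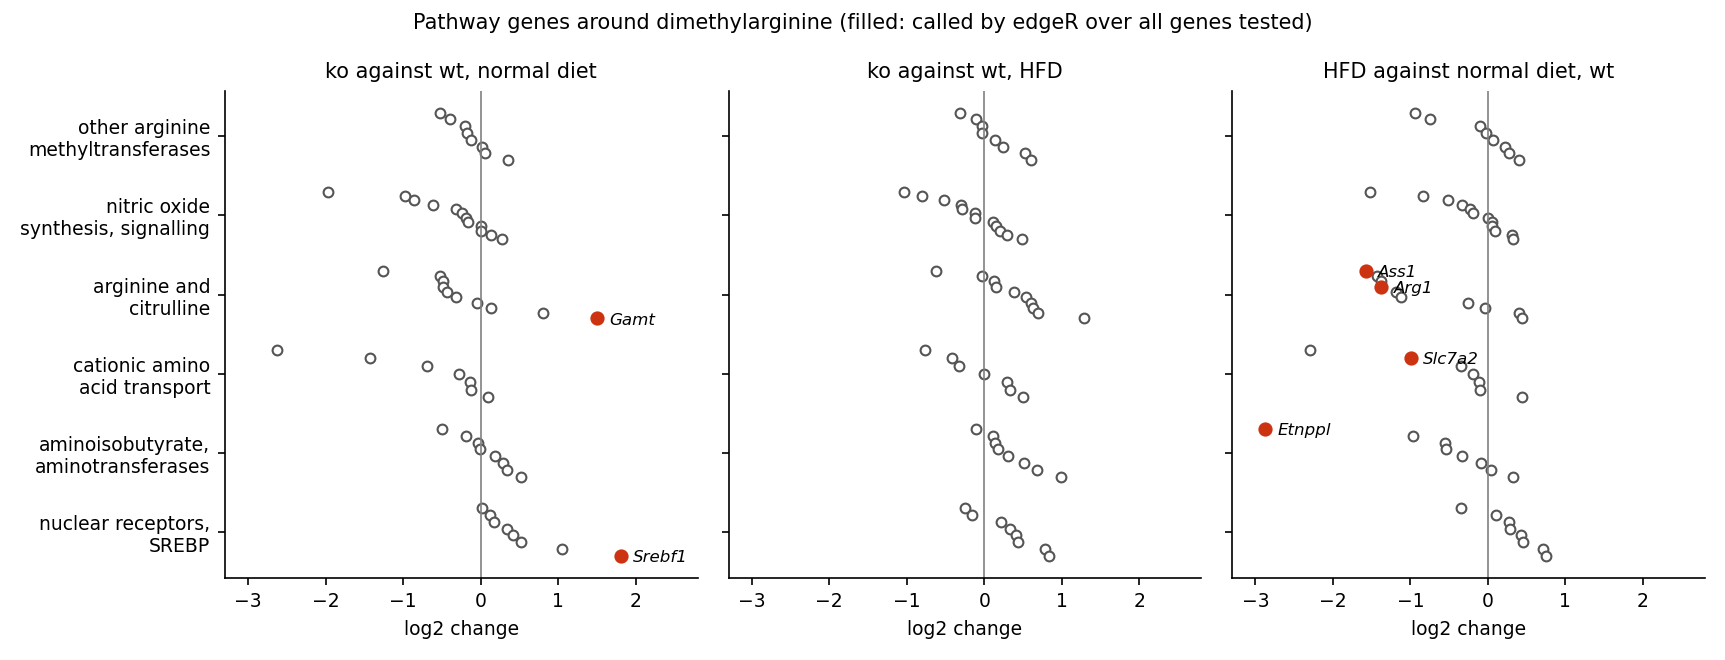
Fitted log2 changes (horizontal axis) of the 53 tested genes in 6 lists (rows, 1 circle a gene, sorted within a row) for 3 comparisons. Red circles with names were called by edgeR over all genes: Gamt and Srebf1 higher for ko against wt on the normal diet, and Ass1, Arg1, Slc7a2 and Etnppl lower on HFD in wt livers. No gene is named in the middle panel, ko against wt on HFD.

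Genes of arginine and citrulline metabolism provide and use the arginine that ADMA competes with. Of the 10 tested, 1 was called higher in ko livers on the normal diet, and 3 log2 changes were positive. Of all genes tested, 0.208% were called in that comparison. Gamt, which makes creatine from the guanidinoacetate built with arginine, rose from 99.1 ± 16.1 to 281 ± 91.7 CPM (SD, n = 3). Its log2 change was 1.50 (SE 0.27, adjusted p = 0.0471), and 1.29 on HFD (SE 0.27, adjusted p = 0.150). In wt livers 2 of the 10 were called lower with HFD, and 8 of the 10 log2 changes were negative. Of all genes tested, 0.693% were called there. Arg1, the liver arginase that splits arginine into urea and ornithine, fell from 1402 ± 348 to 542 ± 89.3 CPM (log2 change -1.37, SE 0.24, adjusted p = 0.0289). Ass1, which uses citrulline, the product of the hydrolase, to rebuild arginine, fell from 2898 ± 519 to 971 ± 237 CPM (log2 change -1.58, SE 0.27, adjusted p = 0.0264). In ko livers the log2 changes with HFD were -0.69 for Arg1 and -0.56 for Ass1 (adjusted p = 0.774 and 0.868). The differences of the ko effects were 0.68 and 1.02 (adjusted p = 0.981 and 0.913), so a difference between the genotypes in the diet effect was not shown. The median of the 10 genes was -1.15 for HFD in wt livers and -0.34 in ko livers.

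Slc7a2, a transporter that carries cationic amino acids such as arginine into hepatocytes, was the 1 gene called of 7 in its list. It fell with HFD in wt livers from 308 ± 48.6 to 154 ± 18.5 CPM (log2 change -0.998, SE 0.20, adjusted p = 0.0481), and in ko livers its log2 change was -0.80 (adjusted p = 0.551). Etnppl, a phospho-lyase related in sequence to Agxt2, was the 1 gene called of 8 in its list. It fell in wt livers from 149 ± 29.7 to 20.3 ± 11.1 CPM (log2 change -2.87, SE 0.39, adjusted p = 0.0103), and in ko livers the log2 change was -1.38 (adjusted p = 0.586). Agxt2 itself was measured in the opposite direction in those wt livers, as given above. The calls of Slc7a2 and Etnppl were for HFD in wt livers, where 0.693% of all genes tested were called.

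Srebf1, which encodes a transcription factor of lipid synthesis, rose in ko livers on the normal diet from 24.6 ± 1.72 to 86.5 ± 34.2 CPM (log2 change 1.81, SE 0.31, adjusted p = 0.0449). On HFD its log2 change was 0.78 (SE 0.31, adjusted p = 0.506). It was the 1 gene called of 8 nuclear receptor and SREBP genes, all 8 of which had positive log2 changes in the first comparison, with a median of 0.38. In that comparison 0.208% of all genes tested were called.

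These calls were close to the threshold, apart from that of Etnppl, which ended only without wt_HFD replicate 2 (adjusted p = 0.0594) among 19 other settings. Leaving out any single library other than wt_normal replicate 1 or a wt_HFD library ended the call of Gamt (adjusted p = 0.0612 to 0.171), and leaving out any single wt_normal or ko_normal library, or ko_HFD replicate 1 or 2, ended that of Srebf1 (0.0573 to 0.136). Under scaling by library totals both also missed it (0.0728 and 0.0634). Arg1 and Ass1 missed it without wt_normal replicate 2 or 3, ko_normal replicate 3 or wt_HFD replicate 1 or 2, and Arg1 also without wt_HFD replicate 3 (0.0529 to 0.0939 over both). Among the 12 fits with a library left out, Slc7a2 kept its call only without wt_normal replicate 1 or ko_normal replicate 1 (0.0541 to 0.166 otherwise). Over all 19 other settings it kept its call in 7.

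None of the 8 other methyltransferase genes tested was called in any comparison by edgeR. Prmt5, which makes the symmetric form of dimethylarginine that does not inhibit the synthases directly, had 15.7 ± 1.61 CPM in wt_normal and 12.0 ± 0.997 in ko_normal (log2 change -0.39, SE 0.17, adjusted p = 0.299), and its log2 change on HFD was -0.32 (adjusted p = 0.615). Carm1, like Prmt1 a maker of the asymmetric form, had 5.71 ± 1.27 CPM in wt_HFD and 8.73 ± 3.28 in ko_HFD (log2 change 0.61, SE 0.27, adjusted p = 0.554). With single libraries left out, this Carm1 value ran from 0.27 without ko_HFD replicate 3 to 0.81 without ko_HFD replicate 1 (adjusted p = 0.8496 and 0.3525). With HFD in wt livers its log2 change was -0.94 (adjusted p = 0.115).

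None of the 12 tested genes of nitric oxide synthesis and signalling was called in any comparison by edgeR. Nos3, the endothelial synthase that ADMA inhibits, was outside the naming rule, as were Nos1 and Nos2, which did not pass the filter, and these 3 were chosen after their values were seen. It had 8.20 ± 1.57 CPM in wt_normal and 4.18 ± 2.17 in ko_normal (log2 change -0.98, SE 0.48, adjusted p = 0.359). Its log2 change for ko against wt on HFD was -0.52 (adjusted p = 0.784), and with HFD it was 0.09 in wt livers and 0.55 in ko livers (adjusted p = 0.943 and 0.923). Over single libraries left out, the first value ran from -1.45 without ko_normal replicate 1 to -0.67 without ko_normal replicate 3. Without wt_HFD replicate 2, 2 of the other Nos3 values changed sign. The ko effect on HFD was then 0.31 (adjusted p = 0.898) and the change with HFD in wt livers -0.71 (adjusted p = 0.418). Nos2, the inducible synthase, was at most 0.714 CPM in any library, and Nos1, the neuronal synthase that skeletal muscle also makes, was at 4.67 CPM in wt_normal replicate 2, the library with muscle markers, and at most 0.0627 CPM elsewhere. Cav1, which binds and restrains the endothelial synthase, was at 30.8 CPM in that library and at most 7.29 CPM elsewhere, and its log2 change on the normal diet was -1.98 (SE 0.75, adjusted p = 0.236), and -0.18 (adjusted p = 0.954) without that library. On HFD it was -0.80 (adjusted p = 0.797). Gucy1a1, a subunit of the nitric oxide receptor, had 3.68 ± 0.507 CPM in wt_normal and 2.40 ± 0.247 in ko_normal (log2 change -0.61, SE 0.29, adjusted p = 0.353). On HFD it had 2.06 ± 0.337 CPM in wt livers and 2.90 ± 0.879 in ko livers (log2 change 0.49, SE 0.30, adjusted p = 0.669). With single libraries left out, this Gucy1a1 value ran from 0.28 without ko_HFD replicate 3 to 0.71 without ko_HFD replicate 2 (adjusted p = 0.8899 and 0.7448).

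The 8 genes most like Ddah1 were taken as those with the highest Pearson correlation of log2 CPM with it over the 12 libraries, leaving out predicted gene models. They were Pecr, a peroxisomal enoyl-CoA reductase (r = 0.968), Hoga1, which cleaves hydroxy-oxoglutarate from hydroxyproline breakdown (0.952), and Scarb1, the HDL receptor (0.926). Next came the organic anion transporter gene Slc17a4 (0.925), Hsd11b1, which regenerates active glucocorticoid (0.915), Akr1d1, a reductase of bile acid synthesis (0.914), the ubiquitin ligase gene Rnf135 (0.913) and the endothelial lipase gene Lipg (0.913). Each had its lowest group mean in wt_HFD, as Ddah1 did, which largely follows from choosing them by their correlation with it. Pecr was at 111 ± 23.6 CPM in wt_normal, 150.1 ± 8.14 in ko_normal, 68.9 ± 6.15 in wt_HFD and 141 ± 16.2 in ko_HFD (SD, n = 3).

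These correlations describe the 12 libraries, which share 4 group means, and carry no p. Taken as deviations from the group means, the correlation with Ddah1 was 0.707 for Pecr and between -0.04 and 0.62 for the other 7. Ranked by Spearman's rho, 2 of the 8 genes were again among the nearest 8, and ranked by the deviations 0 were. Between the 4 genes themselves, Ddah1 had r = -0.32 with Ddah2, -0.08 with Agxt2 and -0.49 with Prmt1 over the same libraries.

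**Figure D5:**
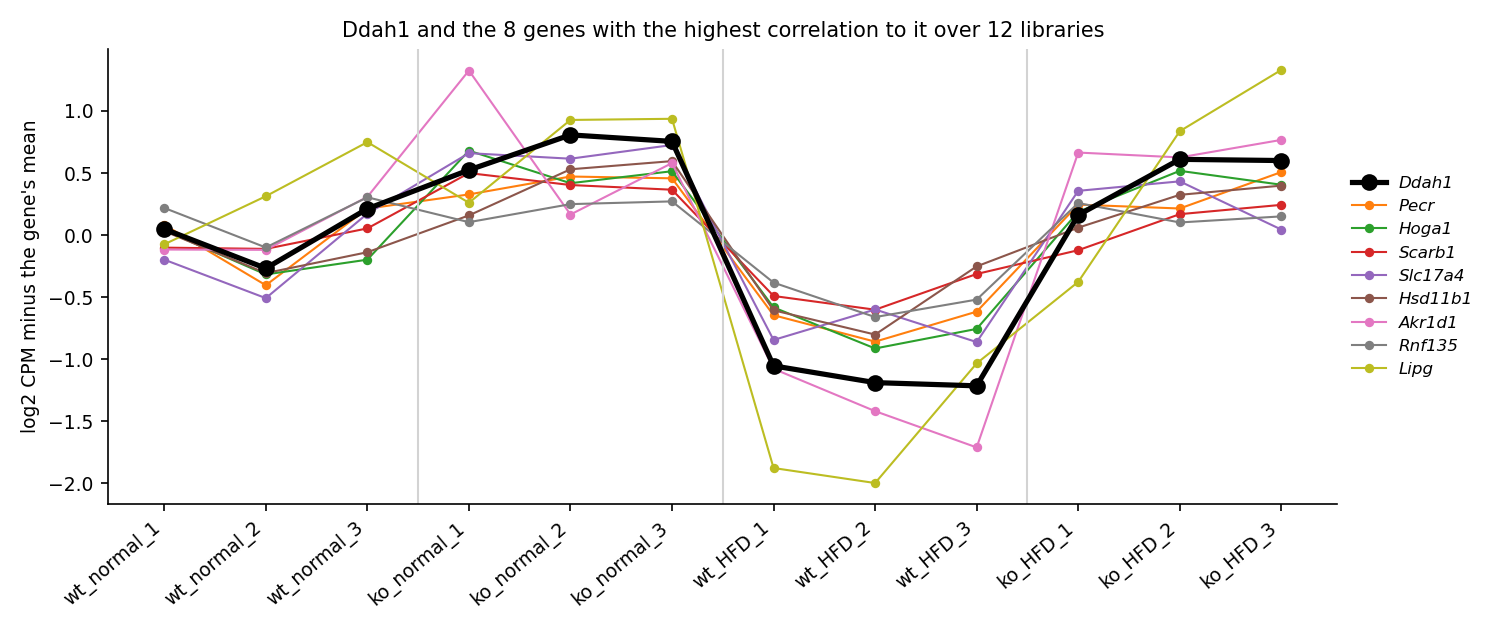
Log2 CPM minus each gene's own mean over the 12 libraries (vertical axis) for Ddah1 (thick black line) and the 8 genes with the highest correlation to it, with libraries ordered by group along the horizontal axis and grey lines between groups. Each of the 9 lines has its lowest point in a wt_HFD library, where Ddah1 was at 17.7 to 19.8 CPM. The 8 genes were chosen by their correlation with Ddah1, so the shared low largely follows from that choice.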

How the data were processed

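RNA from mouse liver was sequenced in 12 libraries with Illumina protocols, per the labels. The deposited files hold whole-number counts of reads per Ensembl gene, made by the authors. The submitters' processing notes name CASAVA 1.8 and Bowtie 0.12.2 and the builds mm8 and mm9 without their roles. Which tool counted the reads, and whether it used strand, is not given in the sources used here. Identifiers were matched to gene symbols (52403 of 52636 matched), and to GENCODE annotation of GRCm38 for exon lengths and positions. All 4 genes were matched to RefSeq promoters.

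Counts were normalised with TMM and filtered with filterByExpr, leaving 14433 genes, and 1 model of 4 group means was fitted with edgeR 4.0.16 (quasi-likelihood F-test, two-sided, Benjamini-Hochberg over all genes, threshold 0.05, R 4.3.3). Intervals are 95%. The spread is shared by all groups (8 residual degrees of freedom). The script was tested on simulated data. Replicates of a group differed well beyond counting noise (chi-square per degree of freedom 39.5 or more), so none was counted as 1 library deposited again.

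The members and the lists were chosen with earlier results of these data known. Named genes are the 4 members, every list gene called, otherwise up to 2 per list with the smallest p for genotype, and the 8 genes most correlated with Ddah1. Nos1, Nos2, Nos3, Alb, Apoa1, Tat, Cyp2e1 and Fgb were named outside that rule, after their values were seen. Marker medians and named uncalled genes with a library left out were added after seeing the data. Alternatives were fits of the compared groups only, a replicate block, RLE size factors, library totals, no filter, a stricter filter (10 counts in every library of 1 group), DESeq2 1.42.0, and each library left out.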

Additional observations from a re-analysis of the deposited data

How the results depend on the processing

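Of 301 refits of tested log2 changes of the 4 genes over 19 alternative settings, 286 kept their direction and their side of the threshold, 1 passed it (Ddah1 on the normal diet by DESeq2, 0.70), and 14 changed sign, all of them small uncalled values with 1 library left out. The 75 refits of the untested Ddah1 values kept their direction. This is no test, because those values include the choice of Ddah1 or share libraries with it. The 14 changes of sign were in values of Ddah2, Agxt2 and Prmt1. For Ddah2 this was the difference of ko effects, which ran from -0.0355 to 0.44 over the libraries left out. For Agxt2 they were ko against wt on HFD (-0.11 to 0.13) and HFD in ko livers (-0.0486 to 0.36). For Prmt1 they were ko against wt on the normal diet (-0.17 to 0.0305) and on HFD (-0.12 to 0.12), and the difference of ko effects (-0.0725 to 0.18). Library totals in place of TMM moved the median of all genes by -0.14 for ko against wt on the normal diet, -0.18 for HFD in wt livers and 0.16 for the difference of ko effects, and changed no direction among the 4 genes.

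Counts of calls depended more on the setting, and the cause was not tested. For ko against wt on the normal diet, the 30 genes called became 96 with the compared groups only, 18 with library totals, 648 without a filter, 529 by DESeq2 and 3 to 84 with 1 library left out, and the 2 list genes called became 1, 0, 4, 6 and 0 to 2 in the same settings. On HFD, the 10 became 6, 16, 51, 95 and 2 to 14, and the list count of 0 became 1 without a filter and 1 by DESeq2. For HFD in wt livers, the 100 became 34 with the compared groups only, 696 without a filter, 660 by DESeq2 and 9 to 131 with 1 library left out, and the 4 list genes became 1, 7, 9 and 0 to 4. For HFD in ko livers, the count of 0 became 2 with the compared groups only, 21 without a filter, 37 by DESeq2 and 0 to 6 with 1 library left out. For the difference of ko effects, the count of 0 became 13 without a filter, 19 by DESeq2 and 0 to 1 with 1 library left out. Of the 8 genes nearest to Ddah1, 2 were kept under Spearman's rho and 0 under deviations from the group means. With the compared groups only, Gamt (adjusted p = 0.0520), Arg1 (0.0650), Ass1 (0.0601) and Slc7a2 (0.0854) lost their calls.

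Replicate numbers in the titles are not said to pair libraries. Deviations from the group means correlated with a median of 0.02 over 18 same-numbered pairs (-0.21 to 0.33), and -0.01 over 36 pairs with other numbers. With the number as a replicate block, 45 genes were called for ko against wt on the normal diet, 7 on HFD and 91 for HFD in wt livers, and Slc7a2 was not called (adjusted p = 0.0605).

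Depth limits Ddah2 most, with 48 to 133 counts a library, while Ddah1, Agxt2 and Prmt1 had 279 or more. The 3 libraries of a group limit every comparison.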
